A study of Mus musculus with 34 samples.

Results

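Liver mRNA was compared between 3 libraries labelled Setd8 knockout (KO) and 3 labelled wild type (WT), 6 of the 34 samples of the series. All 16813 genes with a value of 10 or more in at least 3 of the 6 libraries were taken as members, of 37583 gene identifiers in the table. Both groups were livers of F1 mice (C57Bl6/CBA) at 45 days of age, untreated and on standard chow under a 12-h light/dark cycle. The WT libraries carry the genotype label wild type. The KO libraries carry Setd8lox/lox-Alb-Cre, in which exon 7 of Setd8 is floxed and the Cre recombinase is driven by the albumin promoter, active in hepatocytes. Other cells of the liver keep the gene, and the mice were bred in a mixed F1 background. Poly(A) RNA was sequenced on an Ion Proton instrument. The labels number the replicates without saying whether each is a separate animal, so the p-values below speak of the spread between libraries, part of which may be technical.

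Setd8, also called PR-Set7 and Kmt5a, is the enzyme that places a single methyl group on lysine 20 of histone H4. Kmt5b and Kmt5c can add further methyl groups, and Phf8 and Kdm7a are among the demethylases of histone lysines. The single methyl mark is laid down around mitosis and is needed for chromosome compaction and genome stability in dividing cells. The hepatocyte itself divides little in the adult and carries the metabolism of fat, sterols, hormones and drugs.

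Values are reads that the authors scaled between libraries and rounded to whole numbers. Where 3 values are given for a group they are replicates 1, 2 and 3. Scaled values summed to 18069344 to 25820906 per library. WT replicate 3 stood apart: it lay at 121.5 on a first principal component holding 43.9% of the variance, and only 20077 genes were above 0 in it, where the other libraries held 24497 to 26247. Counts of gene lists and families that moved by over 1.5 times without it are therefore given both ways. A gene is said to have risen, fallen or been called where limma, a linear model fitted across all genes, gave a two-sided p under 0.05 after Benjamini-Hochberg adjustment. Every list count is to be read beside the share of all genes tested. With all libraries 1.35% rose and 1.36% fell, and without WT replicate 3 4.74% rose and 5.17% fell. Counts from DESeq2, an alternative test, have another background: it called 870 rises and 912 falls among the 16813 genes. Some genes belong to more than 1 list and are counted in each. All 14 hepatocyte markers, among them Alb, Apoa1 and Cyp2e1, were present at high level and none was called, with a median log2 difference of -0.05. In bulk liver, fewer cells of a type and less RNA per cell cannot be told apart.

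Setd8 itself stood at 593, 615 and 1076 in WT and at 1199, 1040 and 1075 in KO, and the groups overlapped. It was not lower in the libraries labelled knockout (log2 difference 0.59, SE 0.25, limma adjusted p = 0.244), so every direction below is that of the libraries labelled knockout against those labelled wild type. Without WT replicate 3, whose Setd8 value was the highest of the WT libraries, the log2 difference was 0.87 and passed the threshold as a rise, the only call of the H4 lysine 20 genes below in that fit. Counting reads over a whole gene is a partial test of whether 1 exon was lost. Among 14 tested genes of H4 lysine 20 methylation and its readers, Setd8 included, none was called. Kmt5b stood at 506, 598 and 683 in WT against 619, 717 and 778 in KO, and Kmt5c at 658, 550 and 561 against 919, 761 and 897. The Kmt5c groups did not overlap, but its log2 difference of 0.54 did not pass (limma adjusted p = 0.147). Phf8 (log2 -0.35) and Kdm7a (log2 -0.59) also did not pass.

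Among the 16813 genes, 227 rose (1.35%) and 228 fell (1.36%) at that threshold. Without WT replicate 3, 797 rose (4.74%) and 869 fell (5.17%), together 9.91% of the genes. Most called differences lay between 2-fold and 4-fold: 145 of those that rose and 127 of those that fell. Only 28 rises and 35 falls reached 8-fold or more. The genes that rose together held 0.429% to 0.572% of the scaled total in the WT libraries and 1.62% to 2.05% in the KO libraries. Those that fell held 3.67% to 3.88% in WT and 1.34% to 1.64% in KO. Cyp4a14 alone held 0.108% to 0.171% of the total in KO. These shares describe the genes as they were chosen and carry no test.

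The share of genes called grew with the level of the gene. It was 1.53% of 6359 genes with a mean under 100, 3.15% of 7599 between 100 and 1000, 4.09% of 2589 between 1000 and 10000, and 4.89% of 266 above that. None of the 10 genes with the highest mean scaled value was called: Alb, Apoa1, Apoe, Serpina1e, Serpina3k, Ahsg, Lars2, Cyp2e1, Serpina1b and Serpina1a. Among protein-coding genes, 189 rose and 198 fell of 13951. Among 1471 processed pseudogenes, 25 rose and 3 fell. Processed pseudogenes resemble their parent genes, so reads can be split between the copies. All 7 called antisense genes fell, of 226 tested, and the use of strand in counting was not given in the sources used here.

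**Figure D1:**
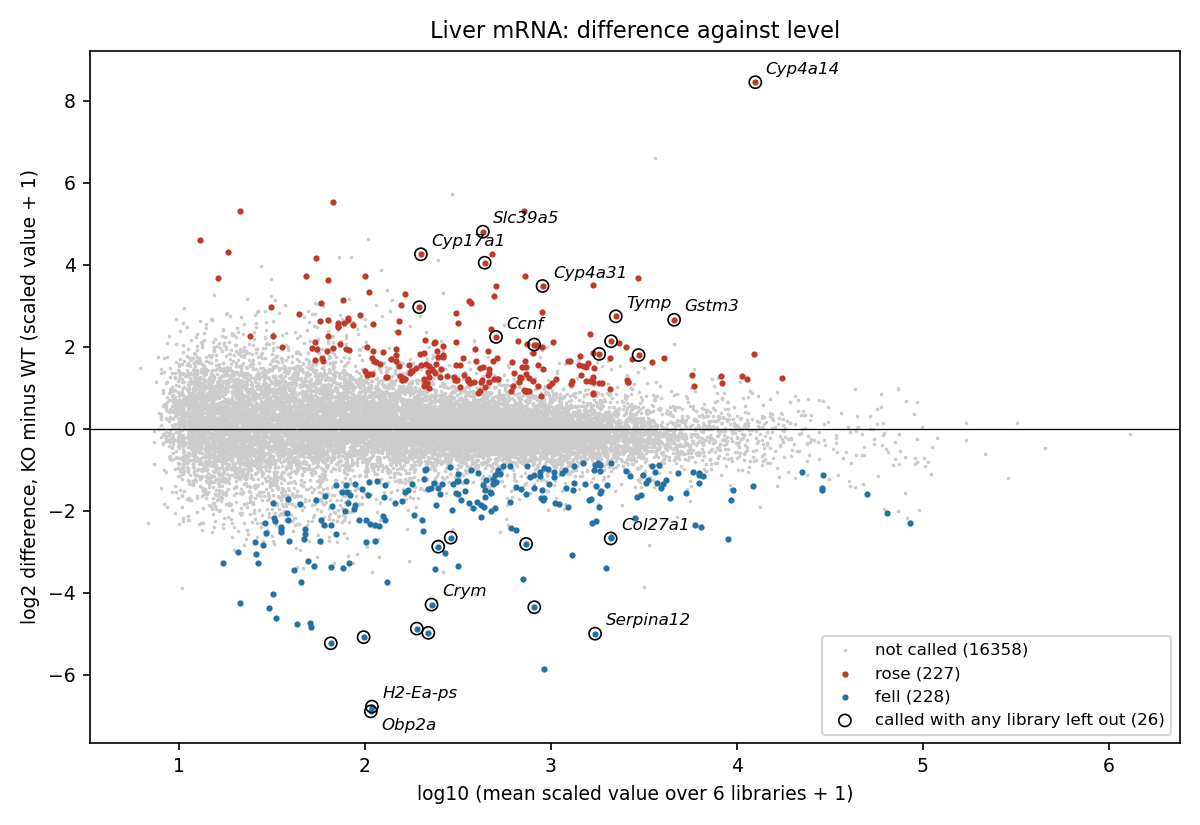
Difference against level for the 16813 tested genes. Each point is a gene, the horizontal axis is log10 of its mean scaled value over the 6 libraries plus 1, and the vertical axis is the log2 difference of KO minus WT; red points rose (227), blue points fell (228), and black rings mark the 26 genes called whichever library was left out, with Cyp4a14 highest at 8.45; for genes at or near 0 in one group, Obp2a among them, the height depends on the 1 added before taking logs.

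Of the 455 called genes (2.71%), 26 were called again with each of the 6 libraries left out in turn (0.155% of genes tested). Of these, 13 rose and 13 fell. Another 206 kept their call in 1 of those 6 fits only. Of the 455 calls, 454 remained without WT replicate 3, 212 without KO replicate 3, 139 without WT replicate 1, 103 without KO replicate 1, 50 without WT replicate 2 and 28 without KO replicate 2. Of the 136 called genes chosen for description, the one that lost its call without WT replicate 3 was Phlda3. The 26 genes are described first, by what they encode.

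Fatty acid and steroid hydroxylases of the cytochrome P450 family made up 5 of the 13 rises. Cyp4a14, a fatty acid omega-hydroxylase, had 64, 90 and 58 in WT and 30918, 19945 and 24260 in KO, a 350-fold rise (limma adjusted p = 6.11e-06). Its neighbour Cyp4a31 rose from 143, 145 and 148 to 2039, 1439 and 1487, 11.2-fold (limma adjusted p = 0.000693). The WT values of Cyp4a31 nearly coincided. Cyp17a1, the steroid 17-hydroxylase of androgen synthesis, rose from 12, 29 and 17 to 246, 429 and 460, 19.1-fold. Cyp2b9, a P450 gene known for higher expression in female mouse liver, rose from 68, 37 and 40 to 1154, 831 and 506, 16.5-fold. Cyp2c23, of the subfamily that epoxidises arachidonic acid, rose 4.39-fold, from 665, 740 and 934 to 3537, 2786 and 3965. In each of the 5 the lowest KO library was well above the highest WT library.

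Glutathione transferases and carriers followed. Gstm3 had 1378, 1141 and 1224 in WT and 9617, 7099 and 7112 in KO, a 6.31-fold rise (limma adjusted p = 0.00313). Gstm2 rose 3.54-fold, from 763, 795 and 830 to 3222, 2553 and 2734. Both code for mu-class enzymes that couple glutathione to reactive compounds. The unnamed gene ENSMUSG00000091578 rose 3.48-fold, from 1418, 1157 and 1390 to 5168, 4225 and 4397. Slc39a5, a zinc importer, rose from 36, 36 and 16 to 1172, 693 and 625, 28.0-fold (limma adjusted p = 0.00355). Igfbp3, which binds insulin-like growth factors in plasma, rose 4.16-fold, from 315, 358 and 271 to 1471, 1276 and 1177. Tymp, thymidine phosphorylase, rose 6.69-fold, from 855, 565 and 380 to 4090, 3015 and 4481. Lrfn3, a membrane adhesion protein best known at synapses, rose 7.80-fold, from 36, 40 and 53 to 452, 321 and 266.

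Ccnf was the only one of the 26 that belongs to the cell cycle list. It encodes cyclin F, which selects proteins for breakdown in the later cell cycle, and it rose 4.72-fold, from 176, 187 and 157 to 669, 764 and 1081 (limma adjusted p = 0.00674). KO replicate 3 held its highest value, whereas Cdk1, the kinase that drives entry into mitosis, stood at 42, 26 and 20 in WT and at 370, 383 and 89 in KO, with replicate 3 lowest (8.07-fold, limma adjusted p = 0.0393). The upstream sequences of the pair are shown because both genes rose and both hold 2 elements that are known from promoters of late cell cycle genes, the CCAAT box and the sequence TTTGAA. Each is the 250 bases before the transcription start in RefSeq (GRCm38.p6), minus strand, 5′ to 3′, with CCAAT and TTTGAA of either strand in capitals; no copies of the 2 overlap.
Cdk1, chr10:69352913-69353162: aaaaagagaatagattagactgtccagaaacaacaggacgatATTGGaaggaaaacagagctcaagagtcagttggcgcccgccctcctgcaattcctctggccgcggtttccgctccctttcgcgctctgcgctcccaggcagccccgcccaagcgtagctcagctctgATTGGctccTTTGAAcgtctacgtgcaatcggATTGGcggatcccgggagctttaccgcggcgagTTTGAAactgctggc
Ccnf, chr17:24251410-24251659: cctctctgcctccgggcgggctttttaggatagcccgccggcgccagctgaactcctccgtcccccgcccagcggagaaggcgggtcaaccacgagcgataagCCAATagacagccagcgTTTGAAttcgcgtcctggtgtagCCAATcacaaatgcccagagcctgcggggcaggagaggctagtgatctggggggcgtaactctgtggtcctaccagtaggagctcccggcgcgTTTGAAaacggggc
The Cdk1 window held 3 CCAAT and 2 TTTGAA, and the Ccnf window 2 of each. Of all 32851 windows of this length, 33.8% held CCAAT and 16.0% held TTTGAA, so neither alone is rare. A match is a description of the letters and not a measured binding site.

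The 13 genes that fell in every such fit included secreted, membrane and hormone-binding proteins. Serpina12, the serpin vaspin, had 3904, 3044 and 3047 in WT and 52, 96 and 216 in KO, a 31.9-fold fall (limma adjusted p = 0.00545). Crym, mu-crystallin, which binds thyroid hormone in the cytosol, fell 19.5-fold, from 467, 371 and 460 to 17, 24 and 23 (limma adjusted p = 0.000904). Nox4, a hydrogen peroxide-producing oxidase, fell 31.5-fold, from 217, 301 and 756 to 9, 7 and 19. Mme, the peptidase neprilysin, fell 29.3-fold, from 210, 283 and 609 to 13, 7 and 12. In Nox4 and Mme the highest WT value was that of replicate 3, and both falls were called without it.

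Matrix and adhesion genes were among them too. Col27a1, a fibrillar collagen, fell 6.38-fold, from 3958, 4273 and 2663 to 572, 572 and 527. Dpt, dermatopontin of the matrix, fell 37.5-fold, from 143, 87 and 149 to 2, 5 and 1. Cadm4, a cell adhesion molecule, fell 7.33-fold, from 505, 515 and 288 to 65, 45 and 62. Ugt1a5, a glucuronosyltransferase whose gene shares exons with others of the Ugt1a locus, fell 7.00-fold, from 1071, 1498 and 1276 to 251, 180 and 130. Gbp11, of the guanylate-binding proteins induced by interferon, fell 20.4-fold, from 2049, 722 and 1871 to 84, 119 and 31. The uncharacterised 3110082I17Rik fell 6.29-fold, from 510, 510 and 469 to 107, 66 and 67. Rps15a-ps8, a ribosomal protein pseudogene, had 192, 141 and 237 in WT and 3, 5 and 6 in KO (limma adjusted p = 0.00355).

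**Figure D2:**
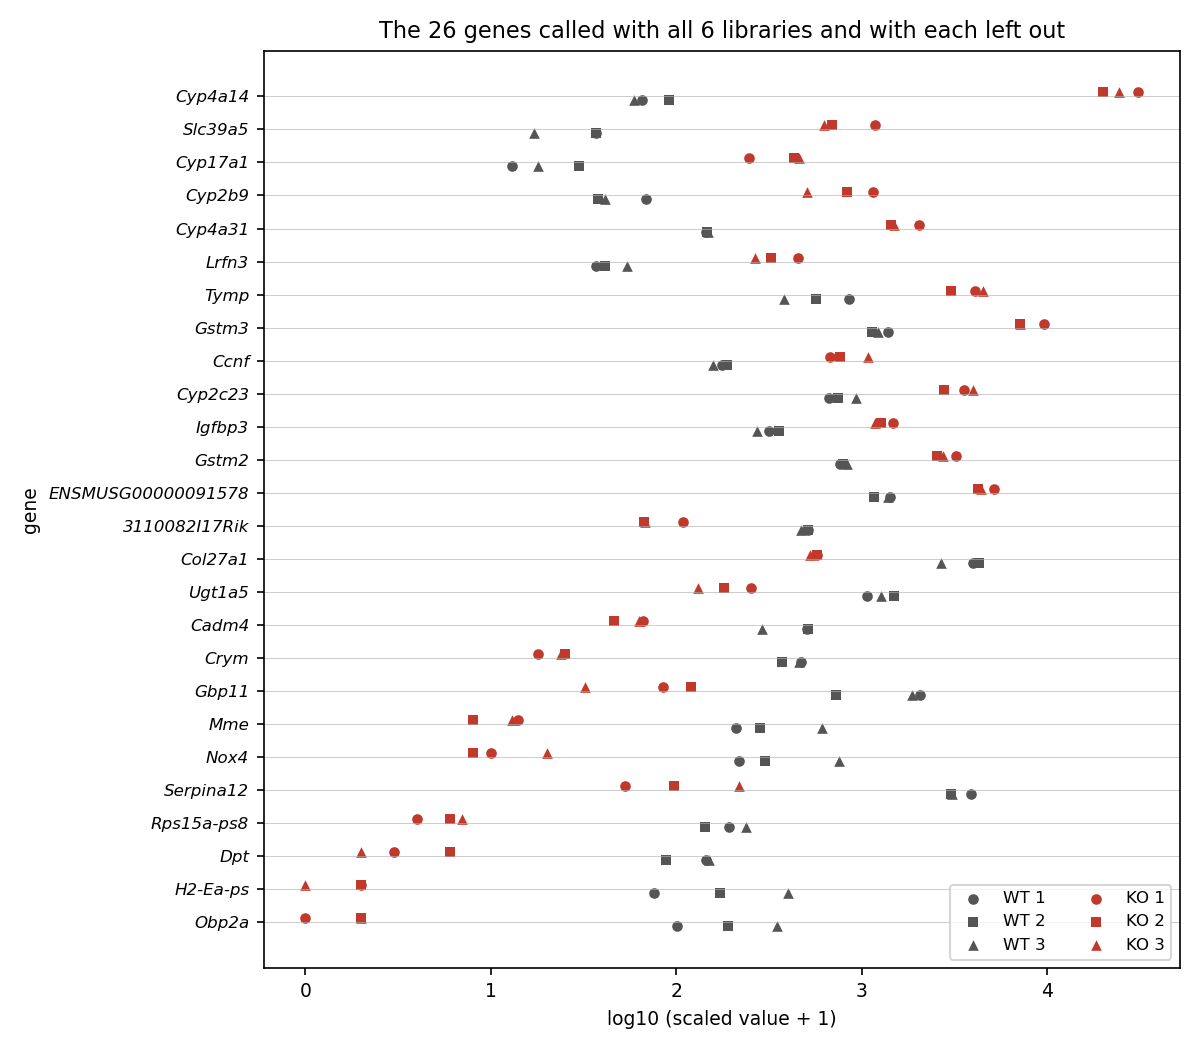
Scaled values of the 26 genes in each library. The horizontal axis is log10 of the scaled value plus 1, each row is a gene ordered by its difference, grey symbols are WT and red symbols KO, and the symbol shape gives the replicate; in none of the 26 rows do grey and red symbols overlap, from Cyp4a14 (58 to 90 against 19945 to 30918) to Obp2a (100 to 349 against 0 to 1).

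For 4 genes one group was at or near 0 in all of its libraries (at most 2) while every library of the other held at least 20. Obp2a, a lipocalin first known as an odorant-binding protein, had 100, 188 and 349 in WT and 0, 1 and 1 in KO. H2-Ea-ps, annotated as a pseudogene of the class II histocompatibility genes, had 75, 171 and 400 in WT and 1, 1 and 0 in KO. Pde6h, a subunit of the phosphodiesterase of photoreceptors, had 20, 25 and 74 in WT and 1, 2 and 0 in KO (limma adjusted p = 0.0381). In the other direction, Cyp21a2-ps, a pseudogene of the steroid 21-hydroxylase, was listed at 0 in the 3 WT libraries and at 53, 41 and 27 in KO (limma adjusted p = 0.0136). Folds for these genes are set by the number added before taking logs and are not given. The mice were of a mixed strain background, and its part in these values was not tested. Like H2-Ea-ps, Cyp21a2-ps lies among histocompatibility genes on chromosome 17, and of the chromosomes with at least 390 genes tested, chromosome 17 had the highest share called, 17 rises and 16 falls of 775 genes (4.26%). Chromosome 10 had the lowest, 5 and 4 of 736 (1.22%).

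Beyond the 26, the largest rises of coding genes included regulators of growth arrest, thyroid hormone and inflammation. Cdkn1a, whose product p21 halts the cell cycle, stood at 70, 21 and 16 in WT and 2210, 1443 and 518 in KO (39.7-fold, limma adjusted p = 0.0108). Phlda3, a target of p53 that restrains Akt, went from 65, 26 and 18 to 1411, 1212 and 141, and its call held in only 1 of the 6 fits with a library left out. In both genes KO replicate 3 was the lowest KO library. Dio1, the deiodinase that activates thyroxine, rose 11.3-fold, from 450, 330 and 124 to 2153, 3597 and 3447. Spon2, a secreted matrix protein, rose 13.2-fold, from 182, 73 and 65 to 1850, 1371 and 805. Lcn2, an acute phase lipocalin, rose 11.3-fold, from 103, 80 and 44 to 1572, 845 and 405. Tuba8, an alpha tubulin, rose 13.2-fold, from 17, 8 and 16 to 185, 217 and 154. Capn11, a calpain, had 2, 6 and 0 in WT and 151, 149 and 91 in KO, with a log2 difference of 5.54 that was 4.80 without WT replicate 3. Hao2 rose 13.2-fold, from 8, 3 and 5 to 136, 95 and 37. Fbxo44 and Disp2 rose 17.9-fold and 12.3-fold from WT values of 21 or less, and 10.6-fold and 8.11-fold without WT replicate 3. Each of the pair kept its call in 2 of the 6 fits with a library left out.

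The other large falls included Hcn3, a cation channel, which fell 12.6-fold, from 808, 719 and 2456 to 70, 75 and 131. It was highest in WT replicate 3 and stayed called without it. Cyp46a1, the cholesterol 24-hydroxylase, had 213, 190 and 5096 in WT and 9, 6 and 14 in KO, so that WT replicate 3 alone lay over 20 times above the other WT libraries; without it the log2 difference moved from -5.87 to -4.31. Elf5, an epithelial transcription factor, fell from 76, 49 and 53 to 1, 5 and 3, and Frmpd1, a scaffold protein, from 82, 90 and 77 to 8, 2 and 8. Erp27, a chaperone partner of the endoplasmic reticulum, fell from 55, 68 and 125 to 2, 1 and 3. Gm5475 fell from 71, 40 and 115 to 10, 3 and 5.

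Fat handling was described by several lists. Of 44 genes of omega hydroxylation and peroxisomal oxidation, 5 rose and 1 fell, with a median log2 difference of -0.08 against 0.0023 for all genes tested (6 and 1 without WT replicate 3). Among all genes 1.35% rose and 1.36% fell, and 4.74% and 5.17% without that library. Besides the Cyp4a genes, Crat, carnitine acetyltransferase, rose 4.33-fold, from 350, 398 and 380 to 1761, 2119 and 1162. Crot, which makes carnitine esters of medium-chain acids in peroxisomes, rose 2.44-fold, from 5592, 4749 and 3942 to 12947, 13408 and 8771. Of 34 genes of mitochondrial oxidation and ketogenesis only Ucp2, a mitochondrial carrier, rose (2.81-fold), and none fell (4 and 2 without WT replicate 3). The medians of both oxidation lists lay within 0.1 of 0.

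Of 24 lipogenic genes, 6 fell and none rose, with a median of -0.55, where 1.36% of all genes fell. Leaving out WT replicate 3 gave 6 falls and 1 rise, where 5.17% and 4.74% of all genes were called. Thrsp, which promotes lipogenesis, fell 6.39-fold, from 8656, 16900 and 20542 to 1329, 2151 and 4017. Srebf1, the transcription factor SREBP-1, fell 3.23-fold, from 7248, 6045 and 6732 to 1828, 1958 and 2441 (limma adjusted p = 0.00938). Its target enzymes Acaca and Fasn fell 2.94-fold and 2.06-fold, and Pklr, liver pyruvate kinase, 3.07-fold. Mid1ip1, a partner of acetyl-CoA carboxylase, fell 3.00-fold, from 1465, 1107 and 738 to 329, 309 and 433. Among 34 genes of triglyceride synthesis and lipid droplets only Plin4, a droplet coat protein, was called, rising from 84, 196 and 143 to 467, 579 and 1366, with KO replicate 3 highest (3 rises and 1 fall without WT replicate 3).

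The 2 Insig genes, whose proteins both hold SREBP in the endoplasmic reticulum, went in opposite directions. Insig2 rose 3.26-fold, from 1067, 1371 and 1381 to 3485, 4291 and 4667 (limma adjusted p = 0.00997). Insig1 fell 2.23-fold, from 3507, 3429 and 3975 to 1272, 1786 and 1905. Of 26 genes of cholesterol synthesis and uptake 1 rose and 3 fell, with a median of 0.0, and 2 rose and 7 fell without WT replicate 3. Among 28 genes of bile acids and sterols, Cyp7b1, which hydroxylates oxysterols, fell 4.52-fold, from 4457, 4058 and 5317 to 590, 1417 and 1244, and Hsd3b7, a later enzyme of bile acid synthesis, rose 2.32-fold. Among 33 genes of phospholipids and eicosanoids, Pla2g7, the platelet-activating factor hydrolase, rose 3.84-fold, and Lpcat3, which remodels phospholipids, fell 1.83-fold. Vldlr, a lipoprotein receptor, rose 2.52-fold, 1 of 27 genes of lipoproteins and lipases. None of 29 sphingolipid genes was called by limma or edgeR, while DESeq2 called 4. Among all 16813 genes DESeq2 called 870 rises and 912 falls. With WT replicate 3 left out the bile acid list had 3 rises and 3 falls, the lipoprotein list 4 rises and the sphingolipid list 1 rise. In that fit 4.74% of all genes rose and 5.17% fell, against 1.35% and 1.36% with all libraries.

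Few genes of sugar, amino acid and cofactor metabolism were called. Of 37 genes of glycolysis and fructose use 2 fell, Pklr and Slc2a5. Slc2a5, a fructose transporter, fell 3.73-fold, from 570, 498 and 1002 to 142, 182 and 210. Irs2, a substrate of the insulin receptor and 1 of 33 genes of glucose output and insulin signalling, rose 1.90-fold, from 263, 295 and 296 to 523, 507 and 599. Amt, of the glycine cleavage system and 1 of 36 genes of one-carbon metabolism, rose 3.15-fold, from 216, 195 and 157 to 645, 618 and 522 (limma adjusted p = 0.0108). Of 27 NAD genes, Aox3, aldehyde oxidase, rose 3.12-fold, and Nnt, which couples NADH and NADPH in mitochondria, 2.25-fold. Ctps2, CTP synthase, rose 2.92-fold among 33 genes of pentose phosphate and nucleotides. None of 33 genes of the tricarboxylic acid cycle (median -0.08), 47 of amino acid breakdown and urea synthesis (-0.01) and 35 of heme, iron and copper (-0.08) was called by limma. In the same order, DESeq2 called 6, 3 and 3, where it called 870 rises and 912 falls among all 16813 genes. Once WT replicate 3 was left out, limma called 3 falls of the tricarboxylic acid cycle, 1 rise and 2 falls of amino acid breakdown, and 2 rises of heme and metals. In that fit the insulin list had 3 rises and 1 fall, the one-carbon list 3 and 2, the NAD list 3 and 2, and the pentose phosphate list 2 and 1. All genes tested had 4.74% rises and 5.17% falls there, and 1.35% and 1.36% with all libraries. Of 23 zinc genes 2 rose and 1 fell, with a median of 0.01. Slc39a4, another zinc importer, rose 2.22-fold beside Slc39a5, and Mt2, metallothionein 2, which binds zinc, fell 5.57-fold, from 867, 699 and 1730 to 251, 111 and 215.

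Of 36 antioxidant and glutathione genes 7 rose and none fell, with a median of 0.07. Of 40 genes in the xenobiotic P450 list 6 rose and 1 fell, with a median of 0.23. Cyp17a1, the steroid 17-hydroxylase, was in that list and among its 6 rises. Of 30 conjugating enzymes none rose and 3 fell, with a median of -0.29. Of all genes 1.35% rose and 1.36% fell, and the lists were not tested against each other. Without WT replicate 3 the antioxidant list had 10 rises, the P450 list 10 rises and 2 falls, and the conjugating list 4 falls, where 4.74% of all genes rose and 5.17% fell. Gsta1, an alpha-class glutathione transferase, rose 7.14-fold, from 46, 67 and 102 to 898, 393 and 337. Hmox1, heme oxygenase, rose 2.81-fold, from 200, 208 and 221 to 814, 675 and 374, and Ephx1, microsomal epoxide hydrolase, 2.45-fold. Cyp3a13 rose 3.43-fold and Cyp2c55 3.99-fold, whereas Cyp2c39 fell 3.54-fold, from 2055, 2079 and 1045 to 630, 323 and 492. Beside Ugt1a5, the sulfotransferase Sult1b1 fell 3.46-fold and Ugt2b38 2.08-fold. P450, glutathione transferase and glucuronosyltransferase genes have close copies, so reads could be split between them and their values are uncertain.

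Sex-biased and hormone-responsive genes were described by 4 lists. Of 17 genes known to be higher in female mouse liver, 5 rose and none fell, with a median of 1.50, where 1.35% of all genes rose. In the fit without WT replicate 3, 8 rose and the median was 0.91, where 4.74% of all genes rose. Cyp3a41a rose 2.84-fold. Cyp17a1 and Cyp2b9 were among the female-biased rises and are also counted in the P450 list. Of 21 male-biased genes none rose and 4 fell, with a median of -0.84, where 1.36% of all genes fell. C6, a complement component, fell 2.04-fold. The other male-biased falls were Cyp4a12b, Cyp7b1 and Ugt2b38. They are also counted in the omega hydroxylation, bile acid and conjugating lists, so the lists are not separate results. Of 29 genes of growth hormone, sex steroid and thyroid response, 1 rose, Dio1, and 2 fell. Esr1, the estrogen receptor, fell 3.94-fold, from 403, 303 and 703 to 133, 126 and 82. Among 39 secreted hormones and hepatokines 1 rose, Igfbp3, and 3 fell, Serpina12 among them. Inhba, a subunit of activin, fell 3.41-fold, from 223, 234 and 272 to 98, 62 and 57. Fetub, a plasma protease inhibitor, fell 2.80-fold, from 41492, 38500 and 45534 to 21701, 11563 and 13150. The hormone response list had 2 rises and 3 falls without WT replicate 3, and the hepatokine list 4 and 3. The labels give no sex. Of 5 Y-linked and X inactivation genes none was called (median -0.30). Kdm5d, which lies on the Y chromosome, was present in every library (WT 257, 254 and 231; KO 276, 271 and 288). Xist, the X inactivation RNA, overlapped between the groups (WT 88, 45 and 18; KO 21, 12 and 35). Within the sex-biased lists the library medians were not even: the male-biased median lay 1.11, 0.90 and 0.62 below the WT mean in KO replicates 1, 2 and 3.

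Of the called clock genes some rose and some fell. Arntl, the positive arm of the clock, rose 8.45-fold, from 6, 14 and 14 to 96, 66 and 145, and Nr1d1, its repressor, rose 3.61-fold, from 1086, 602 and 555 to 2493, 3324 and 2073. Per3, of the period proteins, fell 3.78-fold, from 1885, 1857 and 2108 to 384, 613 and 580 (limma adjusted p = 0.00938). Tef, which binds D-box elements, fell 2.20-fold, from 7697, 8494 and 9437 to 3167, 3703 and 4947, and Wee1, a kinase under clock control, 2.98-fold. Of 25 genes of the clock and its outputs 2 rose and 4 fell, with a median of -0.83, where 1.35% and 1.36% of all genes did. Leaving out WT replicate 3 gave 3 rises and 7 falls, where 4.74% and 5.17% of all genes were called. The labels give no hour of collection, and its part in these values was not tested.

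The sequence before Per3 is shown because it held 2 copies of the D-box TTATGTAA, the element to which Tef and its relatives bind. The D-box of either strand is in capitals in the 250 bases before the start in RefSeq (GRCm38.p6), minus strand, 5′ to 3′.
Per3, chr4:151044666-151044915: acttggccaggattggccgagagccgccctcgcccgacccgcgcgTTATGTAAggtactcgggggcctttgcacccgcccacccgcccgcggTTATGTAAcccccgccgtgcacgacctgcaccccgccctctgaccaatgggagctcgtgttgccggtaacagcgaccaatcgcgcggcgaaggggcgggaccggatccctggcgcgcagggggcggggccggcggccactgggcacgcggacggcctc
At least 1 copy was found in 0.819% of all 32851 windows of this length. Per3 and Tef both fell; binding was not measured in these libraries.

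The called genes of the division and p53 response lists all rose, and most were lower in KO replicate 3 than in the other KO libraries. Wee1, a kinase of the cell cycle that was counted with the clock genes, fell 2.98-fold. Of 33 cyclins, kinases and E2F factors 5 rose and none fell (8 rose without WT replicate 3), and of 41 kinetochore, spindle and cytokinesis genes 2 rose and none fell, with a median of 1.44, where 1.35% of all genes rose. Without overlap between groups were 22 of the 41, all higher in KO, against 13.2% of all genes. Prc1, which bundles spindle microtubules, stood at 40, 41 and 49 in WT and 312, 347 and 107 in KO. Aurka, a spindle kinase, stood at 29, 43 and 44 against 212, 188 and 91. Ccna2, cyclin A2, stood at 27, 17 and 14 against 139, 176 and 51. KO replicate 3 was the lowest KO library in 40 of the 41 kinetochore and spindle genes, against 5500 of the 16813 genes tested. By library the list's median lay 2.10, 1.98 and 0.79 above the WT mean in KO replicates 1, 2 and 3. The median of 20 macrophage markers lay 1.40, 1.76 and 0.50 above it in the same libraries, and its part in the division genes was not tested. Without KO replicate 3, 10 of the 41 rose, and without WT replicate 3, 6 rose and 1 fell. Cdkn2c, the inhibitor p18, was more even, with 172, 110 and 76 in WT and 548, 527 and 410 in KO (4.32-fold). Among 34 genes of DNA damage and p53, Gtse1 joined Cdkn1a and Phlda3 (6.29-fold, 53 in KO replicate 3 against 176 and 195), and Bak1, which opens the mitochondrial membrane in apoptosis, rose 2.31-fold among 39 cell death genes. The damage list had 4 rises and 1 fall without WT replicate 3, and the cell death list 1 and 2. Without that library 4.74% of all genes rose and 5.17% fell.

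**Figure D3:**
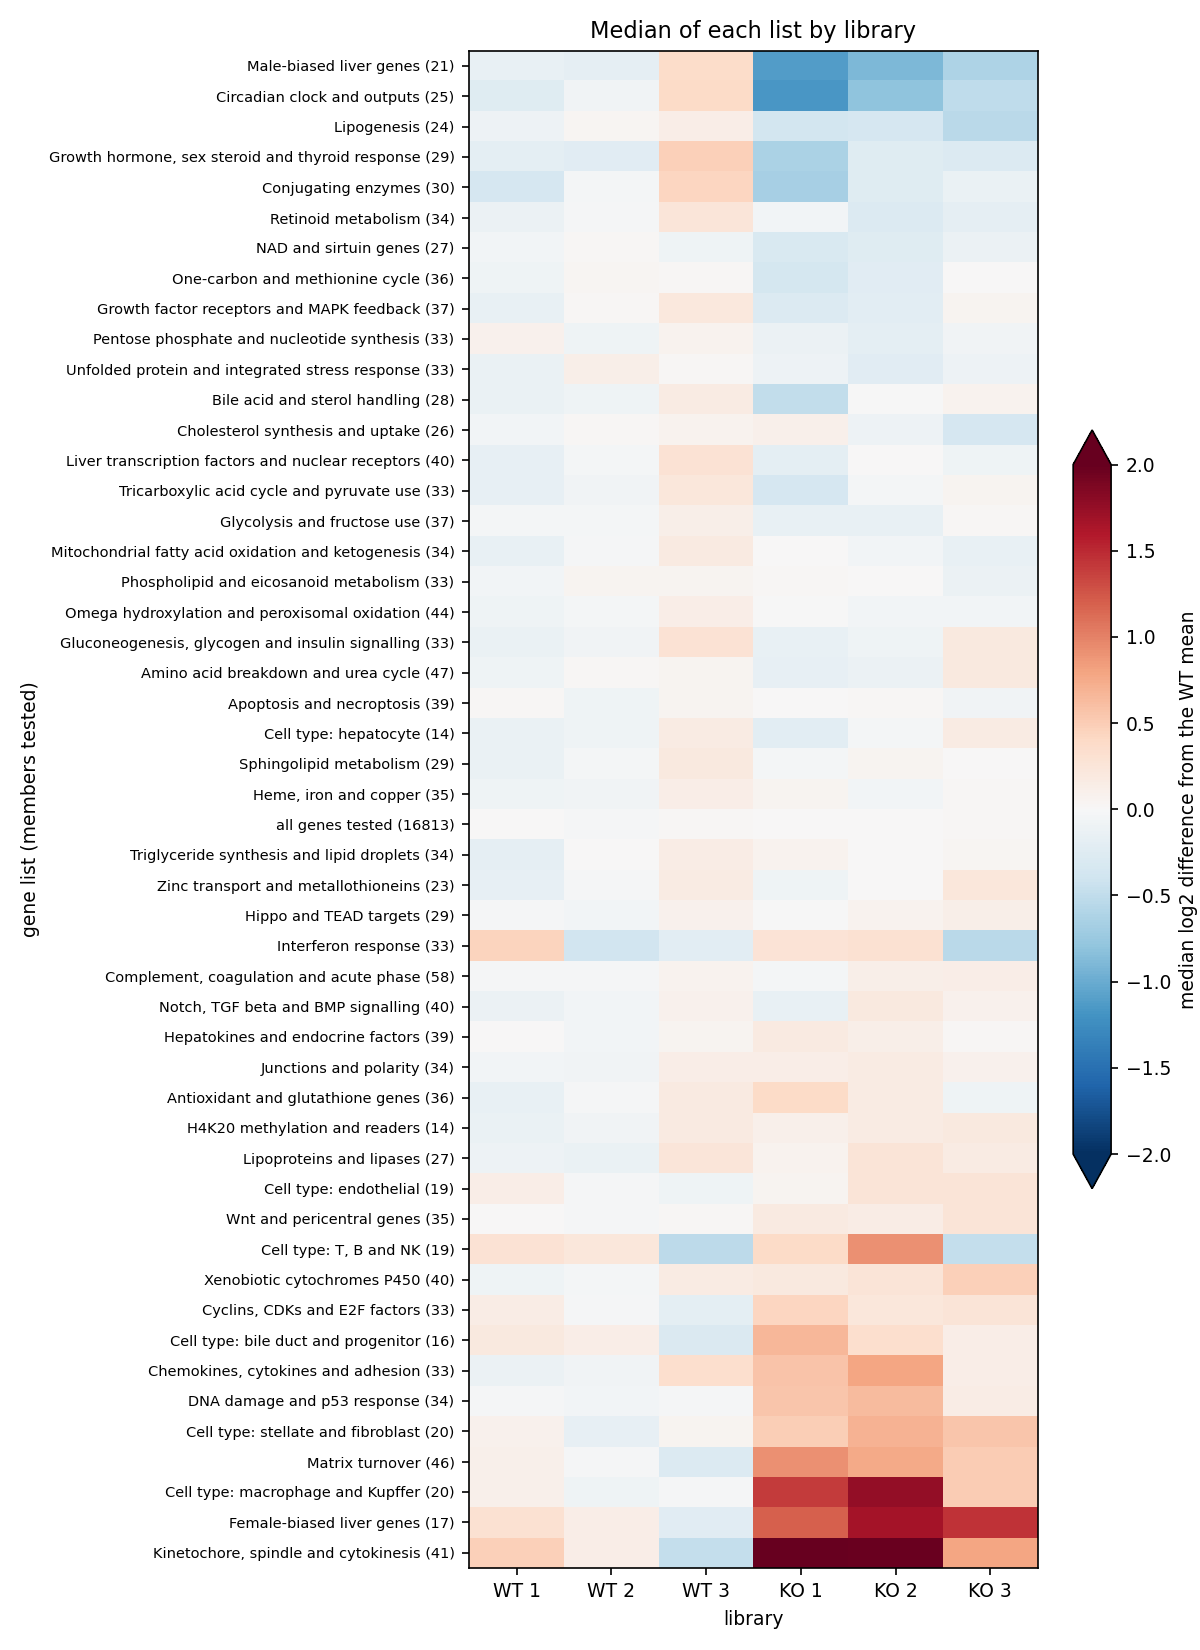
Median of each gene list in each library. Columns are the 6 libraries, rows are lists with at least 14 tested members and all genes tested, and colour is the median over members of the log2 scaled value plus 1 minus the WT mean, from blue (lower) to red (higher); the kinetochore row runs from 2.10 and 1.98 in KO replicates 1 and 2 to 0.79 in replicate 3, and male-biased genes are below 0 in all 3 KO columns.

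Markers of cells other than hepatocytes are given beside the immune and matrix genes. Of 20 macrophage markers 2 rose and none fell (7 without WT replicate 3), Csf1r (429, 727 and 595 in WT, 1844, 2594 and 1203 in KO) and Cd14 (30, 47 and 61, and 246, 152 and 122). Among all genes 1.35% rose and 1.36% fell, and 4.74% and 5.17% without WT replicate 3. Summed over the list, macrophage markers ran from 9206 to 10740 in WT and from 13291 to 27873 in KO, lowest in KO replicate 3. Stellate and fibroblast markers summed to 8120 to 10281 in WT and 13566 to 15557 in KO, with Pdgfrb and Postn up and Dpt down among 20 (4 up and 2 down without WT replicate 3). Bile duct markers summed to 2203 to 2297 and 3026 to 4733, with Spp1, osteopontin, up 3.60-fold. Endothelial markers summed to 12639 to 14444 in WT and 14218 to 14881 in KO. Of 19 none was called by limma and 3 rose without WT replicate 3. DESeq2 called 2 endothelial rises, where it called 870 rises among all 16813 genes. None of the listed markers of these types was at 0 in all 6 libraries.

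Beside these sums, C4b, a complement component, rose 3.55-fold, from 6470, 5667 and 4173 to 20941, 20587 and 15890 (limma adjusted p = 0.0113). C1ra, the protease that starts the classical complement pathway, rose 3.33-fold, from 1727, 1891 and 1921 to 4795, 6792 and 7128. Kng1, kininogen, fell 2.18-fold, and Lbp, which carries bacterial lipopolysaccharide, rose 2.16-fold. Of 58 genes of complement, coagulation and the acute phase, 5 rose and 2 fell (7 and 5 without WT replicate 3). For this and the lists that follow, 1.35% of all genes rose and 1.36% fell. Without WT replicate 3 these shares were 4.74% and 5.17%. Of 33 chemokines, cytokines and adhesion genes 3 rose: Spp1, Ccl6, a chemokine (3.50-fold), and Vcam1, an adhesion molecule (2.16-fold). With WT replicate 3 left out, 6 rose and 2 fell. Cfp, properdin, which steadies the alternative complement convertase, rose 2.33-fold. None of 33 interferon response genes was called by limma, with a median of 0.0. DESeq2 called 2 of them, where it called 870 rises and 912 falls among all 16813 genes. Of 46 matrix genes 3 rose and 3 fell, with a median of 0.75 (7 and 3 without WT replicate 3). Sparc, a matrix glycoprotein, rose 2.21-fold, from 1863, 1518 and 1463 to 4118, 3414 and 3184, and Adamts1 2.32-fold. Mmp15, a membrane metalloprotease, fell 2.03-fold. The part of the marker sums in these results was not tested.

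Signalling and junction genes gave 1 to 3 calls per list. Of 37 growth factor receptor and MAPK genes, Pdgfrb rose and Jun fell. Jun, a subunit of AP-1, fell 2.17-fold, from 3306, 4751 and 4812 to 2136, 1832 and 1897. Fzd4, a Wnt receptor and the only call of 35 Wnt and pericentral genes, fell 2.93-fold, from 552, 687 and 854 to 192, 252 and 265. Notch1, the only call of 40 Notch, TGF beta and BMP genes, rose 2.22-fold, from 287, 246 and 237 to 628, 667 and 438. Of 29 Hippo and TEAD targets, Axl, a receptor kinase, rose 2.83-fold, and Crim1, which binds BMP ligands, 2.42-fold. Of 34 junction and polarity genes, Cldn1, a tight junction claudin, rose 2.35-fold, while Pard3 and F11r, both of cell polarity and junctions, fell 1.86-fold and 1.78-fold. Manf, a factor of the stressed endoplasmic reticulum, fell 2.01-fold among 33 genes of the unfolded protein and integrated stress responses, where Vldlr rose. Dhrs9, a retinol dehydrogenase and the only call of 34 retinoid genes, rose from 14, 12 and 5 to 71, 107 and 49. Tff3, trefoil factor 3 of mucous tissue and 1 of 5 tested markers of pancreas, fat and gut, rose 9.45-fold, from 203, 44 and 77 to 583, 932 and 1109. None of 40 liver transcription factors and nuclear receptors was called by limma or edgeR (median -0.06); DESeq2 called 5, all lower, and limma without WT replicate 3 called 2, both lower. In that fit the growth factor list had 2 rises and 2 falls, the Wnt list 3 and 2, the Notch and TGF beta list 3 and 1, the junction list 3 and 2, and the retinoid list 3 and 1. There 4.74% of all genes rose and 5.17% fell, against 1.35% and 1.36% with all libraries. In all, 13 lists held no call, lymphocyte (19 genes), neutrophil (5) and erythroid (8) markers among them. Of their 295 tested members, 60 had an unadjusted limma p under 0.05, and edgeR called 1 and DESeq2 27. Among all 16813 genes tested, 3361 had such a p. There edgeR called 256 rises and 254 falls, and DESeq2 870 rises and 912 falls.

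When genes were grouped by the first letters of their symbols, 108 groups had at least 15 tested members. Not all of these are gene families: some are single letters, and Gm held 1649 genes. Interferon-inducible Ifi genes had the highest share called, 3 rises and 1 fall of 19 (21.1%), followed by Cyp genes with 11 rises and 4 falls of 89 (16.9%). Without WT replicate 3 these were 6 and 1, and 17 and 6. Rgs genes, which shorten G protein signals, had 2 falls of 15, and 7 without WT replicate 3. Solute carriers had 4 rises and 3 falls of 288 (2.43%), near the background of 2.71%, and 15 and 11 without WT replicate 3, where the background was 9.91%. Zinc finger Zfp genes had 1 rise and 3 falls of 340 (1.18%), and 4 and 12 without it. Calls of ribosomal protein genes and their pseudogenes depended on that library. Of 131 Rpl genes, pseudogenes included, 1 rose and 1 fell, against 19 and 2 without WT replicate 3. Of 92 Rps genes, pseudogenes included, 2 rose and 1 fell, against 16 and 5. With all libraries the called Rps genes were all pseudogenes, and the Rpl rise was the pseudogene Rpl13-ps6.

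Several called genes lay next to one another, and the following neighbourhoods were picked after their values were seen. Gene order was taken from a later mouse annotation. In the Gstm cluster on chromosome 3, 5 of 7 Gstm genes rose, where 1.35% of all genes did, and the 5 stand in a row, leaving aside predicted genes between them. In order, Gstm6 rose 2.17-fold, Gstm3 6.31-fold, Gstm2 3.54-fold, Gstm1 2.34-fold and Gstm4 3.31-fold. The 2 at one end, Gstm5 and Gstm7, had log2 differences of 0.38 and 0.64 and did not pass. In the Cyp4a cluster on chromosome 4, Cyp4a14, Cyp4a10 (267, 258 and 1039 in WT, 5872, 4798 and 5298 in KO) and Cyp4a31 rose side by side. Cyp4a10 rose 12.7-fold, and 20.1-fold without WT replicate 3. Cyp4a12b, on the other side of Cyp4a30b, fell 2.13-fold, from 5307, 6070 and 8437 to 2994, 3167 and 2970. Cyp4a12a, Cyp4a30b and Cyp4a32 did not pass. Genes of 1 subfamily in 1 stretch thus had opposite directions.

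In the Ifi200 cluster on chromosome 1, of 11 tested genes 2 rose and 1 fell. Ifi206 was listed at 0 in the 3 WT libraries and at 24, 30 and 18 in KO. Ifi204 rose 3.78-fold, from 34, 21 and 47 to 101, 178 and 108. Ifi202b fell 20.5-fold, from 83, 41 and 48 to 1, 1 and 4. Proteins of this cluster sense DNA in innate immunity. Its genes are close copies of each other, so their values are uncertain. The part of the mixed strain background in them was not tested.

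In the Obp2 cluster on chromosome 2, Obp2a, the uncharacterised A230005M16Rik (27, 26 and 55 in WT, 3, 3 and 4 in KO) and Obp2b (62, 84 and 42, and 3, 1 and 1) fell, and Bmyc between them did not pass (20, 54 and 100, and 12, 18 and 22). The upstream sequences of Obp2a and Obp2b are shown because they are nearly the same. Each is the 250 bases before the start in RefSeq (GRCm38.p6), plus strand, 5′ to 3′, with no part in capitals.
Obp2a, chr2:25699824-25700073: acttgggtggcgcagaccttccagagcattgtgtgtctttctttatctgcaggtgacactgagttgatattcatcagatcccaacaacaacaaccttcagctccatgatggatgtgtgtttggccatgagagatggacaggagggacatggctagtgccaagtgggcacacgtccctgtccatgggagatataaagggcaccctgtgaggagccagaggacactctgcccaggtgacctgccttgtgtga
Obp2b, chr2:25736757-25737006: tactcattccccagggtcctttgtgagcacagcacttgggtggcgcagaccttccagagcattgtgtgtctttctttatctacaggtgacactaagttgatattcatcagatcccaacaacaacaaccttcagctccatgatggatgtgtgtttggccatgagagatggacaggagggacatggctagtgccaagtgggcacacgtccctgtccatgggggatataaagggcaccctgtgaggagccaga
Set against each other with a shift of 33 bases, 214 of 217 bases were identical (98.6%). Reads of such copies could be split between them, and the values of the pair are uncertain.

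**Figure D4:**
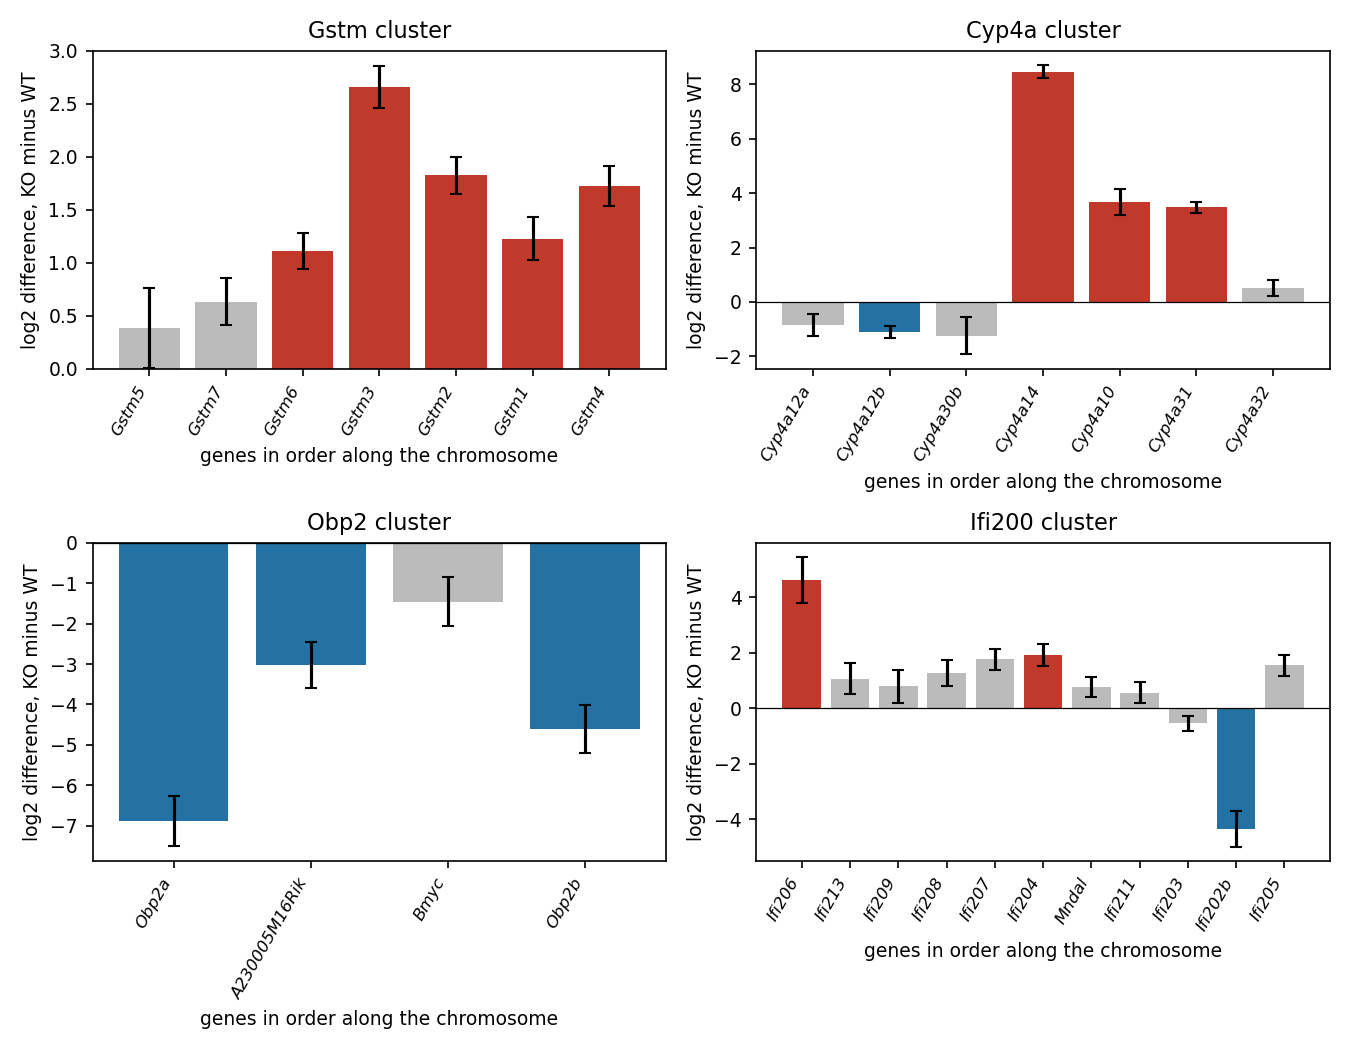
Differences of neighbouring genes in 4 clusters. Bars are the log2 difference of KO minus WT with its standard error for genes in chromosome order (predicted genes and pseudogenes between them are left out), red for genes that rose, blue for genes that fell and grey for genes that were not called, each panel with its own vertical scale; Gstm3 is highest in its cluster at 2.66, Cyp4a14 reaches 8.45 beside Cyp4a12b at -1.09, and no Obp2 cluster gene is above 0.

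Around Setd8 itself, 1 of the 20 nearest tested genes was called, where 2.71% of all genes were. 2810006K23Rik, 3 tested genes away, stood at 382, 352 and 397 in WT and 176, 214 and 203 in KO (log2 -0.93, limma adjusted p = 0.048). Sbno1 and Rilpl2, the genes next to Setd8, had log2 differences of -0.0011 and -0.15 and did not pass.

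The KO libraries did not move alike. Among the 455 called genes, KO replicate 3 was the KO library nearest to WT in 212, replicate 1 in 150 and replicate 2 in 93. KO replicate 3 was not lowest in every list. It was the highest KO library in 38 of 47 genes of amino acid breakdown, where none was called, and in 15 of 21 male-biased genes, and the lowest in 30 of 33 interferon response genes and 17 of 20 macrophage markers. Among all genes tested it was highest in 5917 and lowest in 5500 of 16813. Of the WT libraries, replicate 3 was farthest from KO in 219 of the 455. It held 21 genes over 4-fold above every other library, among them Cyp46a1 and the small RNA genes Rn7sk and Snord118. Another 28 were over 4-fold below every other library. These counts were 11 and 1 in WT replicate 1, and 3 and 1 in WT replicate 2.

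Newly made RNA of the 26 genes was read from the study's nascent libraries, 1 per genotype and method. EU libraries hold RNA that took up ethynyl uridine in the living animal, and Br libraries RNA made with bromouridine by isolated nuclei. There is no replicate and no test, and the intervals are exact 95% binomial intervals of the read counts, which cover counting error only. With 20 reads or more, 13 of 22 genes in EU and 17 of 21 in Br had the direction of the mRNA. With intervals that leave out 0, 10 genes in EU and 14 in Br had that direction. The opposite direction, also with intervals that leave out 0, was found in 6 genes in EU and 3 in Br. In 6 genes both methods had the direction of the mRNA with such intervals: Cyp4a14, Cyp4a31, Gstm3, Col27a1, Nox4 and Serpina12. For Cyp4a14, EU reads numbered 2 in WT and 3564 in KO, and Br reads 10 and 1447. Gstm3 had a log2 ratio of 3.09 in EU (2.29 to 3.97) and 2.77 in Br (2.24 to 3.33). Col27a1 had -1.41 in EU (-1.57 to -1.24) and -1.01 in Br (-1.29 to -0.73). Gbp11 went against its mRNA in both, with 291 and 1491 EU reads in WT and KO (3.31, 3.13 to 3.50) and 10 and 19 Br reads (1.37, 0.19 to 2.64). Cyp17a1 also did, with 159 and 2 EU reads and 71 and 32 Br reads. In EU, Igfbp3, Lrfn3, H2-Ea-ps and Ugt1a5 went against their mRNA too. Ccnf did so in Br (-0.31, -0.49 to -0.12), while its EU interval held 0 (-0.14, -0.47 to 0.18).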

How the data were processed

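Liver mRNA of 3 WT and 3 KO libraries was compared, with groups taken from the sample titles. The mRNA values are a score: per the labels and the table's title, reads that the authors scaled with DESeq and rounded to whole numbers. Per the submitters' processing notes, TopHat2, Bowtie2, Cufflinks and DESeq were used with genome mm9. Counter and annotation are not given in the sources used here. Deposited nascent files hold read counts per gene. Br values, even numbers throughout, were halved. Names came from a GENCODE mouse annotation of a later build (32860 of 37583 identifiers), so its coordinates were used only for gene order. Promoter windows came from RefSeq (GRCm38.p6).

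Raw counts had been planned for. Because the files hold scaled values, the test was limma 3.58.1 (R 4.3.3; trend and robust) on log2 of the value plus 1, all 6 libraries, no covariate, two-sided, with Benjamini-Hochberg adjustment over all 16813 genes and a threshold of 0.05. Folds are fitted on the value plus 1 and understate low genes. Reads re-estimated from the rounding step of each library (15640612 to 27111073) served edgeR 4.0.16 and DESeq2 1.42.0 as alternatives. The limma fit was also run on simulated data, drawn independently with 1 spread per gene and no library that stood apart. That run cannot speak for the effect of WT replicate 3. The members, the 53 gene lists and the tests were chosen with earlier results of these data known, so no list is independent evidence. Genes were named by rule: Setd8, genes called with each library left out, the 15 largest rises and falls of coding genes without overlap and with a group mean of 50 or more, up to 6 called members per list, genes at 2 or less in one group and 20 or more in the other, the 10 most abundant genes, and 10 genes on either side of Setd8. The tested H4 lysine 20 genes and the 4 gene clusters were added after values were seen. Other alternatives were no filter, pseudocounts of 0.5 and 10, TMM scaling, array weights, a replicate block, each library left out and, added after the data were seen, edgeR without WT replicate 3. Chromatin samples and the deposited RPKM table were not used here. Some called genes are not reported here.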

Additional observations from a re-analysis of the deposited data

How the results depend on the processing

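Limits: there were 3 libraries per group, 1 WT library stood apart, and the number of calls depended on the library left out and on the tool. With all 6 libraries, limma called 227 rises and 228 falls. With one library left out, rises ran from 13 to 797 and falls from 15 to 869, lowest without KO replicate 2 and highest without WT replicate 3. Array weights gave 4250 rises and 4160 falls, and DESeq2 on re-estimated reads 870 and 912. edgeR without WT replicate 3 gave 748 and 909. No filter, pseudocounts of 0.5 and 10, TMM scaling and edgeR stayed within 1.5 times of the counts. Of the 455 called genes, 454 were still called without WT replicate 3, 212 without KO replicate 3, 139 without WT replicate 1, 103 without KO replicate 1, 50 without WT replicate 2 and 28 without KO replicate 2. No called gene named in the text reversed its direction under any alternative. Setd8 passed the threshold with array weights (log2 0.76, limma adjusted p = 0.000312), without WT replicate 3 (0.87; 0.44 to 0.87 with single libraries left out) and with edgeR without WT replicate 3 (0.86, adjusted p = 0.0232); in the other alternatives it did not. The cause of these differences was not tested.

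With the replicate number as a block, 500 genes rose and 514 fell. The numbers share no stated animal or batch, and the deviations of same-numbered libraries correlated at 0.409, -0.242 and 0.198, so they were not taken as pairs. Only WT replicate 1 correlated best with the KO library of its own number.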
